A study of Homo sapiens with 11 samples.

Results

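The enzymes described here make the deoxynucleotides from which cells build DNA. They are RRM1, RRM2, TYMS, DTYMK, TK1, DCK and DUT, 7 genes chosen by symbol and read from transcript clusters annotated with that 1 symbol, with the cluster of highest mean level where a gene had several. Clusters of this kind covered 22109 genes, of which 12147 passed the level filter and were tested. Of the 7 enzymes 6 had such a cluster, and these 6 were all tested. DCK was listed only on a cluster shared with MOB1B, which encodes a Hippo pathway adaptor, so that cluster is given under both names and untested.

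Ribonucleotide reductase removes the 2′ oxygen from ribonucleoside diphosphates, and it is built from the large catalytic subunit RRM1 and the small radical-bearing subunit RRM2. Thymidylate comes from dUMP through thymidylate synthase (TYMS) or from salvaged thymidine through thymidine kinase (TK1), and thymidylate kinase (DTYMK) phosphorylates the product of both routes. Deoxycytidine kinase (DCK) salvages deoxycytidine and activates cytarabine, a nucleoside drug used in acute myeloid leukaemia, and dUTPase (DUT) converts dUTP to dUMP, which feeds TYMS and keeps uracil out of DNA. Most of these genes are textbook targets of E2F transcription factors, and transcripts such as RRM2, TYMS and TK1 peak around S phase.

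The cells were MV4-11, an established line of acute myeloid leukaemia, and each of the 11 conditions had 1 array of log2 levels. Cells on 8 arrays were transduced with shRNAs and held in 3 µM doxycycline for 24 hours: a luciferase shRNA (shLuc, the control), shRUNX1, shRUNX2, shRUNX3, the combinations shRUNX1+shRUNX2, shRUNX1+shRUNX3 and shRUNX2+shRUNX3, and all 3 together (the triple knockdown). Each RUNX shRNA was thus present on 4 arrays and absent from 4. The other 3 arrays came from cells given DMSO, Chb-M' or Chb-50 for 6 hours, with the compounds, which the series calls alkylating PIP conjugates, at 1 µM. The series asked how expression responds to knockdown of the RUNX transcription factors or to these conjugates. RNA came from whole cultures, so fewer cells in S phase and less RNA of an enzyme in each cell cannot be told apart.

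All arrays are named by their labels. Their medians ran from 5.86 to 5.91 over the tested genes. RUNX2 averaged 5.70 with and 6.14 without its shRNA, and RUNX3 averaged 7.74 with and 8.11 without its own. The array labelled shRUNX1 had RUNX3 at 7.70, a level that the arrays with the RUNX3 shRNA also span (7.65 to 7.88). RUNX1 was listed only on a cluster shared with LOC100506403, which averaged 4.09 with and 4.30 without the RUNX1 shRNA. Between arrays that differ in that shRNA alone, it differed by -0.18 (against shLuc), -0.19 (against shRUNX2), -0.17 (against shRUNX3) and -0.29 (against shRUNX2+shRUNX3). It read 4.26 on the array labelled shRUNX1+shRUNX2, while arrays that lack the RUNX1 shRNA ran from 4.20 to 4.45. That cluster is a weak check of RUNX1, so the labels of these 2 arrays are used as given, and the RUNX1 and RUNX3 estimates and their interaction are also given without each of them. Of 8 myeloid markers 6 were tested, from 4.89 (MPO) to 11.60 (LYZ), and CD33 and HOXA9 were not analysed here. Among the markers of other cell types, 5 lay under the level filter of 3.80 on every array, including CD3E, MS4A1 and EPCAM, and the 4 tested ones reached at most 4.92.

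The promoter sequences are shown because most of these genes are textbook E2F targets. Whether E2F factors had a part in the enzymes' levels on these arrays was not tested. RefSeq start sites (GRCh38.p14) gave 12 windows for the 7 genes, each the 250 bases before a start. Both strands were searched for 4 E2F words, namely TTCCCGC (in 5.52% of all windows), TTGGCGC (in 2.56%), TTCGCGC (in 1.85%) and TTGCCGC (in 1.87%). They were also searched for the CCAAT box, and for the RUNX word TGTGGT (in 11.0%) and its variant TGCGGT (in 5.84%). These sets overlap in no base of the windows shown. An E2F word was present in 6 of 7 genes, all but DTYMK, counted over 1 or more windows a gene. By window it was present in 6 of 12, beside 10.9% of all 35116 windows. CCAAT was found for 4 of 7 genes (RRM1, RRM2, TK1 and DTYMK), in 5 of 12 windows, beside 32.0% of all windows. A RUNX word was found for 1 of 7 genes, TYMS, in 1 of 12 windows, beside 16.3% of all windows. The windows printed, 5′ to 3′ along the gene with the matches in capitals, are RRM1 at chr11:4094435-4094684 (plus strand), the first RRM2 start at chr2:10122489-10122738 (plus), TYMS at chr18:657403-657652 (plus), the second TK1 start at chr17:78187053-78187302 (minus) and DTYMK at chr2:241686816-241687065 (minus).
RRM1: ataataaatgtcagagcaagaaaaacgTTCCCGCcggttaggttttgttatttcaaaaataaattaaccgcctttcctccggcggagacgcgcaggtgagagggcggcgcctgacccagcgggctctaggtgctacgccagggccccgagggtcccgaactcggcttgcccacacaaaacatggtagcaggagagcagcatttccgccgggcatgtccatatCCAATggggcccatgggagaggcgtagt
RRM2: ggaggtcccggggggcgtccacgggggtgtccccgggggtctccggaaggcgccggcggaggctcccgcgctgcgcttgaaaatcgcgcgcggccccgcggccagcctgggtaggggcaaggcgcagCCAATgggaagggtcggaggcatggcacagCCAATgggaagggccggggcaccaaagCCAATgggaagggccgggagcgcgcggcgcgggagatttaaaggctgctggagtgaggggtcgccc
TYMS: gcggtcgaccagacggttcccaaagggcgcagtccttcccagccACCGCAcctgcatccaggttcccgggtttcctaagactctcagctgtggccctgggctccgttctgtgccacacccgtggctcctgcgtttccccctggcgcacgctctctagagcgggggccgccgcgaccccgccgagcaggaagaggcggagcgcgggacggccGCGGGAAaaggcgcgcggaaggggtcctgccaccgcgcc
TK1: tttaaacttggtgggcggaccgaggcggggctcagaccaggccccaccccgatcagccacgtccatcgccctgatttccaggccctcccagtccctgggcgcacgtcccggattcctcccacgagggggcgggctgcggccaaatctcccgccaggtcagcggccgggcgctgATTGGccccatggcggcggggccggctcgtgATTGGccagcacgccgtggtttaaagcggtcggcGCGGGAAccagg
DTYMK: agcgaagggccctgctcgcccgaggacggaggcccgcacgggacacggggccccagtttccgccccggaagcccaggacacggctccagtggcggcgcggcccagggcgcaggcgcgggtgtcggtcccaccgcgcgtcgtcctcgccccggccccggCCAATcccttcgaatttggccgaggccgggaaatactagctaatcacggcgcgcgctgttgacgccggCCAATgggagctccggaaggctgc

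RRM1 carries TTCCCGC at -223 from the start and CCAAT at -28. RRM2 has 3 CCAAT boxes, at -123, -93 and -66, in the window shown, and its E2F word TTGGCGC, on the opposite strand, lies before the second start. TYMS has TTCCCGC on the opposite strand at -39, with the RUNX word TGCGGT on the opposite strand at -206. TK1 has TTCCCGC at -12 and CCAAT at -77 and -46, all on the opposite strand, while DTYMK has CCAAT at -92 and -24. A match describes the letters of the window and is not evidence of binding.

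The subunits of ribonucleotide reductase lay lowest where the RUNX1 and RUNX3 shRNAs were combined. RRM1 had a log2 level of 9.11 on shLuc, 9.07 on shRUNX2, 9.06 on shRUNX3 and 9.03 on shRUNX2+shRUNX3. With the RUNX1 shRNA it read 8.97 with shRUNX1 alone, 8.67 with shRUNX1+shRUNX2, 8.21 with shRUNX1+shRUNX3 and 8.36 in the triple knockdown. All 4 arrays with the RUNX1 shRNA therefore lay below all 4 without it. The groups averaged 8.55 ± 0.337 (SD, n = 4) and 9.07 ± 0.0349 (SD, n = 4), so nearly all of the spread was among the arrays with the shRNA.

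RRM2 read 8.49 on shLuc, 8.48 on shRUNX2, 8.56 on shRUNX3 and 8.48 on shRUNX2+shRUNX3. It read 8.61 with shRUNX1 alone, 8.08 with shRUNX1+shRUNX2, 7.46 with shRUNX1+shRUNX3 and 7.74 in the triple knockdown. Here the groups overlapped, since the array labelled shRUNX1 was the highest of the 8. With the RUNX1 shRNA the mean was 7.97 ± 0.494 (SD, n = 4), and in its absence 8.50 ± 0.0357 (SD, n = 4).

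The thymidylate enzymes had the same order over the arrays with the RUNX1 shRNA. TYMS read 9.10 on shLuc, 9.10 on shRUNX2, 9.37 on shRUNX3 and 9.30 on shRUNX2+shRUNX3. It read 9.05 with shRUNX1 alone, 8.75 with shRUNX1+shRUNX2, 7.89 with shRUNX1+shRUNX3 and 8.21 in the triple knockdown. The groups did not overlap, but the array labelled shRUNX1 was separated from shLuc by 0.06 only. The lowest level, on shRUNX1+shRUNX3, was 36.0% of that on shRUNX3, the farthest apart of any pair of arrays that differ in the RUNX1 shRNA alone among the 6 enzymes.

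DTYMK, the kinase that both thymidylate routes need, read 7.74 on shLuc, 7.51 on shRUNX2, 7.61 on shRUNX3 and 7.56 on shRUNX2+shRUNX3. It read 7.51 with shRUNX1 alone, 7.20 with shRUNX1+shRUNX2, 6.81 with shRUNX1+shRUNX3 and 6.97 in the triple knockdown. The arrays labelled shRUNX1 and shRUNX2 were the point of overlap, with DTYMK at nearly the same level on both.

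The salvage kinases had different patterns. TK1 read 8.94 on shLuc, 8.74 on shRUNX2, 8.89 on shRUNX3 and 8.83 on shRUNX2+shRUNX3. It read 8.74 with shRUNX1 alone, 8.53 with shRUNX1+shRUNX2, 7.86 with shRUNX1+shRUNX3 and 7.91 in the triple knockdown, so the groups touched at a shared value of 8.74. The cluster of DCK and MOB1B read 7.05, 7.02, 6.79 and 6.93 on shLuc, shRUNX2, shRUNX3 and shRUNX2+shRUNX3. With the RUNX1 shRNA it read 7.25, 7.16, 6.80 and 7.01 on the arrays in the same order of partners, higher than the partner in all 4 pairs by 0.02 to 0.21. For this cluster the arrays with the RUNX3 shRNA averaged 6.88 ± 0.105 (SD, n = 4) and those without it 7.12 ± 0.110 (SD, n = 4). Which of the 2 genes gives the signal is unknown.

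DUT, the dUTPase, lay close to the level filter of 3.80 on every array. It read 4.10 on shLuc, 4.09 on shRUNX2, 4.19 on shRUNX3 and 4.14 on shRUNX2+shRUNX3. It read 3.80 with shRUNX1 alone, 4.09 with shRUNX1+shRUNX2, 3.99 with shRUNX1+shRUNX3 and 3.91 in the triple knockdown. Its lowest level was thus on the array labelled shRUNX1, where the other 5 tested enzymes differed from shLuc by -0.23 (DTYMK) to 0.12 (RRM2). Some deposited values repeat exactly across arrays: DUT holds 1 value on shRUNX2, the array labelled shRUNX1+shRUNX2 and Chb-M', TYMS on shLuc, shRUNX2 and DMSO, RRM2 on shRUNX2, shRUNX2+shRUNX3 and DMSO, and TK1 on the arrays labelled shRUNX1 and shRUNX2. The same was seen for 4577 of 12147 genes (37.7%) on at least 2 arrays, so an exact tie is no measure of precision.

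**Figure D1:**
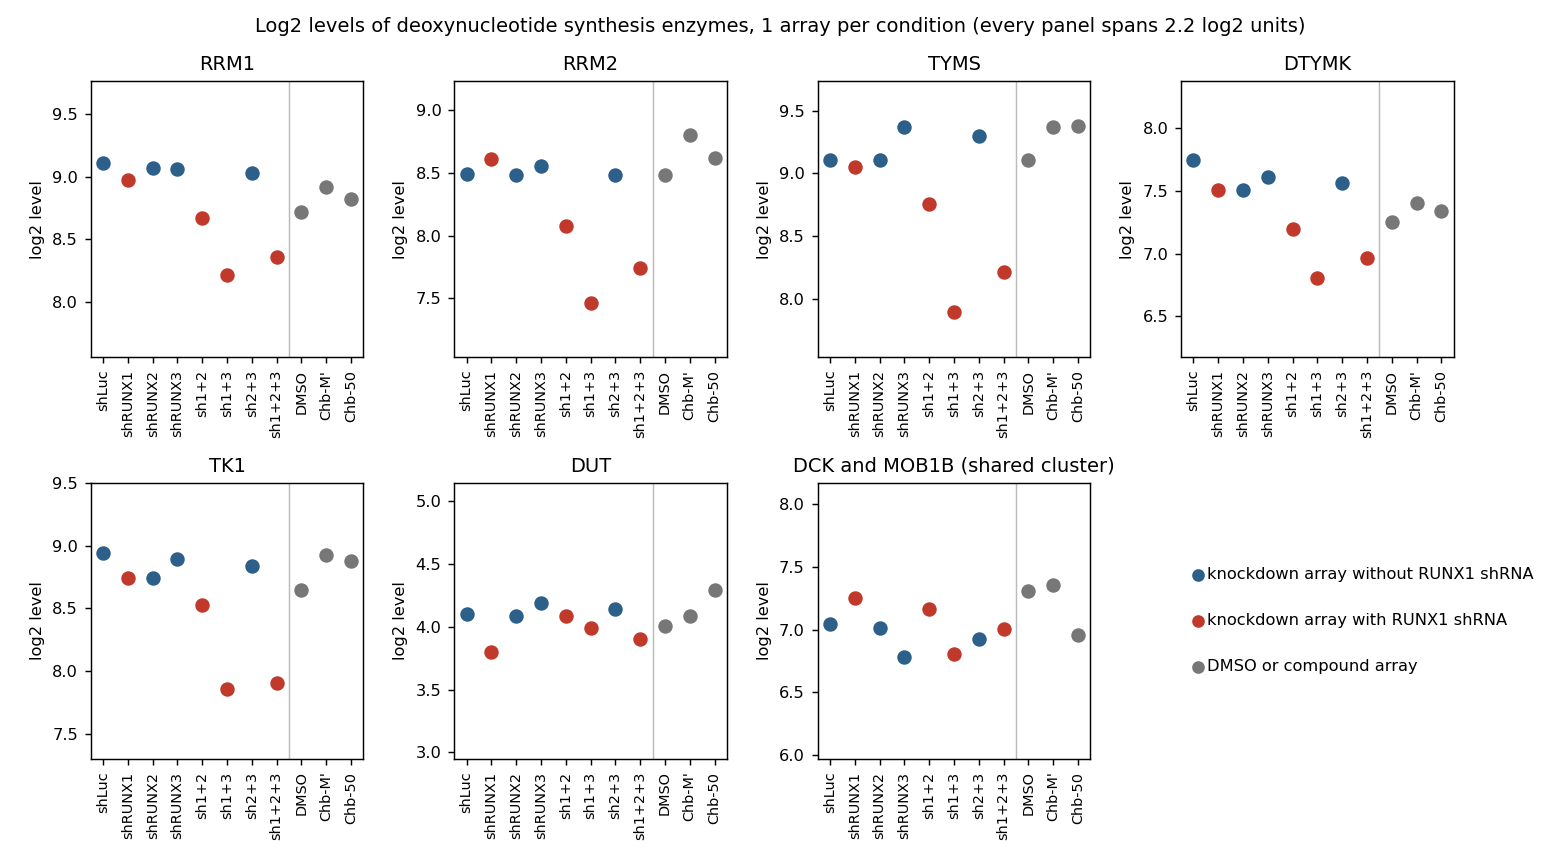
Log2 level (vertical axis) of the 6 tested enzymes and of the cluster shared by DCK and MOB1B on each of the 11 arrays (horizontal axis, where sh1+2 stands for shRUNX1+shRUNX2 and so on), 1 point per array with no error bar because each condition has 1 array. Red points with the RUNX1 shRNA lie lowest at sh1+3, at 7.89 for TYMS and 7.46 for RRM2, while DUT stays between 3.80 and 4.29.

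Each enzyme was compared between arrays that differ in the RUNX1 shRNA alone, so that each pair shares its other shRNAs. Against shLuc, the array labelled shRUNX1 differed by -0.14 for RRM1, 0.12 for RRM2, -0.06 for TYMS, -0.23 for DTYMK, -0.20 for TK1 and -0.30 for DUT. Against shRUNX2, the array labelled shRUNX1+shRUNX2 differed by -0.40, -0.41, -0.35, -0.31, -0.22 and 0.00 in the same order of enzymes. Against shRUNX3, shRUNX1+shRUNX3 differed by -0.85, -1.10, -1.47, -0.80, -1.03 and -0.19. Against shRUNX2+shRUNX3, the triple knockdown differed by -0.66, -0.74, -1.09, -0.59, -0.93 and -0.23. For every enzyme but DUT, which lay near the level filter, the difference was more negative in both pairs with the RUNX3 shRNA than in either without it.

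RRM1, TYMS, DTYMK and TK1 were lower in all 4 of these pairs, which held for 13.0% of all genes tested. RRM1 and TYMS, 2 of 6, were lower on all 4 arrays with the RUNX1 shRNA than on all 4 without it, against 4.73% of all genes tested.

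**Figure D2:**
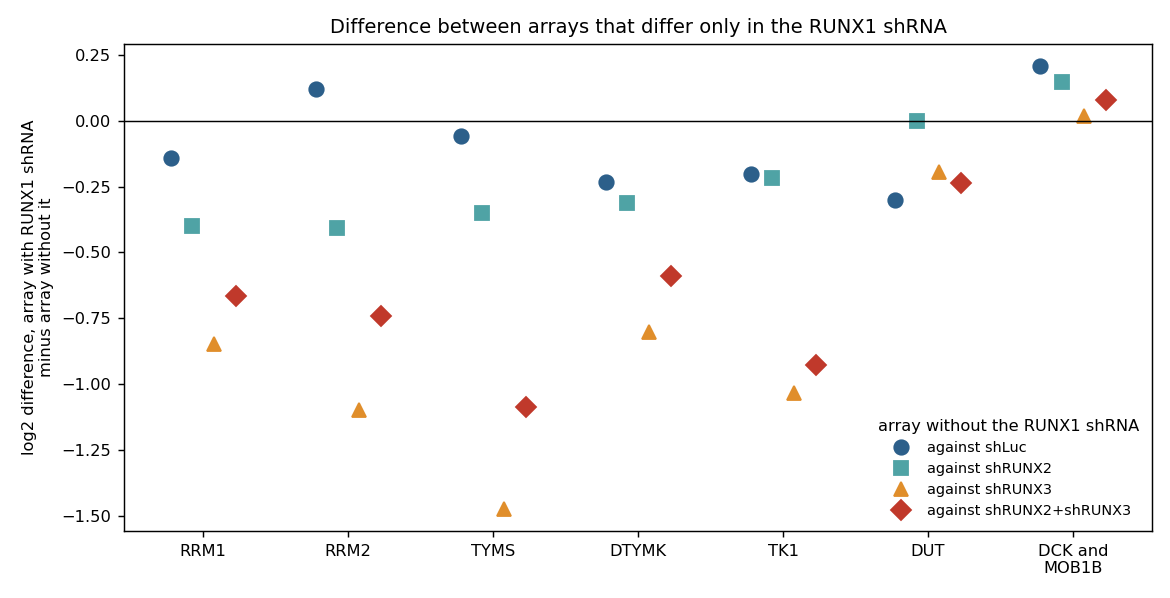
Log2 difference between an array with the RUNX1 shRNA and the array that lacks only that shRNA (vertical axis) for each enzyme (horizontal axis), with 1 point for each of the 4 pairs and no error bars. For RRM1, RRM2, TYMS, DTYMK and TK1 the pairs that carry the RUNX3 shRNA (triangles and diamonds) lie lowest, down to -1.47 for TYMS, while the points of DUT lie between -0.30 and 0.00.

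In the additive limma fit over the 8 knockdown arrays, TYMS had an estimate for the RUNX1 shRNA of -0.74 (SE 0.222, limma adjusted p = 0.133). The other estimates were -0.59 for TK1 (SE 0.158, limma adjusted p = 0.115), -0.53 for RRM2 (SE 0.188, limma adjusted p = 0.175) and -0.51 for RRM1 (SE 0.119, limma adjusted p = 0.101). DTYMK had -0.48 (SE 0.116, limma adjusted p = 0.102) and DUT -0.18 (SE 0.0752, limma adjusted p = 0.225). None of the 6 passed the threshold of 0.05, nor did any of the 12147 genes (0%), with 2580 genes at an unadjusted p under 0.05. All 6 estimates were negative and all 6 enzymes were at an unadjusted p under 0.05 on the lower side, as were 10.0% of all genes tested. The median was -0.52 over the 6 enzymes and 0.01 over all genes, and 47.2% of all genes had a negative estimate. A limma fit to the differences within the 4 matched pairs, with 3 residual degrees of freedom, gave adjusted p from 0.125 (DTYMK) to 0.22 (DUT). Its estimates are the same by design, since each combination has 1 array. This paired fit called 0% of genes, and all 6 enzymes were at an unadjusted p under 0.05 on the lower side, as were 9.68% of all genes.

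The call depended on the array labelled shRUNX1. Without that array the limma fit called 817 genes and 5 of the 6 enzymes, RRM1 (-0.63), RRM2 (-0.74), TYMS (-0.95), TK1 (-0.72) and DTYMK (-0.59), with adjusted p from 0.0344 to 0.046. DUT (-0.13, limma adjusted p = 0.309) did not pass. The RUNX1 shRNA is then present in combinations only, and its effect alone is not measured. Without the array labelled shRUNX1+shRUNX2 no gene was called. With 1 array left out at a time, the estimate ran from -0.95 to -0.53 for TYMS, -0.74 to -0.34 for RRM2 and -0.72 to -0.46 for TK1. It ran from -0.63 to -0.40 for RRM1, -0.59 to -0.36 for DTYMK and -0.25 to -0.13 for DUT. No condition has a repeat array, so the spread behind these p-values is what the additive shRNA terms leave. It includes any interaction of the shRNAs and is no measure of repeat arrays. Nothing in the labels says that arrays came from separate transductions, so any noise within that spread may be technical.

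With the RUNX3 shRNA the estimates were smaller, and those of the 5 enzymes above lay below 0. They were -0.37 for TK1 (SE 0.158), -0.35 for RRM2 (SE 0.188), -0.31 for TYMS (SE 0.222), -0.29 for RRM1 (SE 0.119) and -0.25 for DTYMK (SE 0.116), with 0.04 for DUT (SE 0.0752). Limma adjusted p ran from 0.518 to 0.895, and 0% of genes were called. RRM1 alone of the 6 was at an unadjusted p under 0.05 on the lower side, against 4.82% of all genes. Leaving out 1 array at a time moved the estimate from -0.46 to -0.09 for TYMS, -0.47 to -0.15 for RRM2, -0.49 to -0.23 for TK1, -0.36 to -0.17 for RRM1 and -0.34 to -0.13 for DTYMK. Without the array labelled shRUNX1 the estimates were -0.10 for TYMS, -0.15 for RRM2, -0.24 for TK1, -0.17 for RRM1, -0.15 for DTYMK and -0.02 for DUT. Without the array labelled shRUNX1+shRUNX2 they were -0.24, -0.37, -0.30, -0.29, -0.25 and 0.11 in the same order. Without the RUNX1 shRNA, TYMS lay higher with the RUNX3 shRNA in both pairs, by 0.26 and 0.20, and with the RUNX1 shRNA it lay lower in both, by -1.15 and -0.54.

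The difference between these pairs was tested as an interaction of the RUNX1 and RUNX3 shRNAs, in a limma fit with 3 residual degrees of freedom. The interaction was -1.08 for TYMS (SE 0.202, limma adjusted p = 0.249), -0.78 for RRM2 (SE 0.255, limma adjusted p = 0.318) and -0.77 for TK1 (SE 0.131, limma adjusted p = 0.249). It was -0.49 for RRM1 (SE 0.161, limma adjusted p = 0.321), -0.42 for DTYMK (SE 0.177, limma adjusted p = 0.402) and -0.06 for DUT (SE 0.154, limma adjusted p = 0.887). TYMS, TK1, RRM2 and RRM1, 4 of 6, were at an unadjusted p under 0.05 on the lower side, as were 6.61% of all genes, and 0% of genes were called, with 1544 at an unadjusted p under 0.05. The size of the interaction depended on single arrays. Without the array labelled shRUNX1 it was -0.89 for TYMS, -0.48 for RRM2, -0.70 for TK1, -0.32 for RRM1, -0.29 for DTYMK and -0.23 for DUT. Without the array labelled shRUNX1+shRUNX2 it was -1.27, -1.08, -0.85, -0.65, -0.56 and 0.10 in the same order. Over all 8 arrays left out in turn it stayed below 0 for every enzyme but DUT, and among those 5 it varied most, relative to its size, for DTYMK (-0.60 to -0.24).

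The RUNX2 shRNA left the enzymes near their partner arrays on average. Estimates ran from -0.11 for DTYMK (SE 0.116) and -0.11 for TK1 (SE 0.158) to 0.04 for DUT (SE 0.0752), and 0% of genes were called by limma, with 593 at an unadjusted p under 0.05. The pairs did not point 1 way. RRM2 lay lower by -0.53 with shRUNX1+shRUNX2 than with shRUNX1 alone, and higher by 0.28 on the triple knockdown than on shRUNX1+shRUNX3. TYMS differed by -0.29 and 0.32 in the same pairs, and RRM1 by -0.30 and 0.15.

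**Figure D3:**
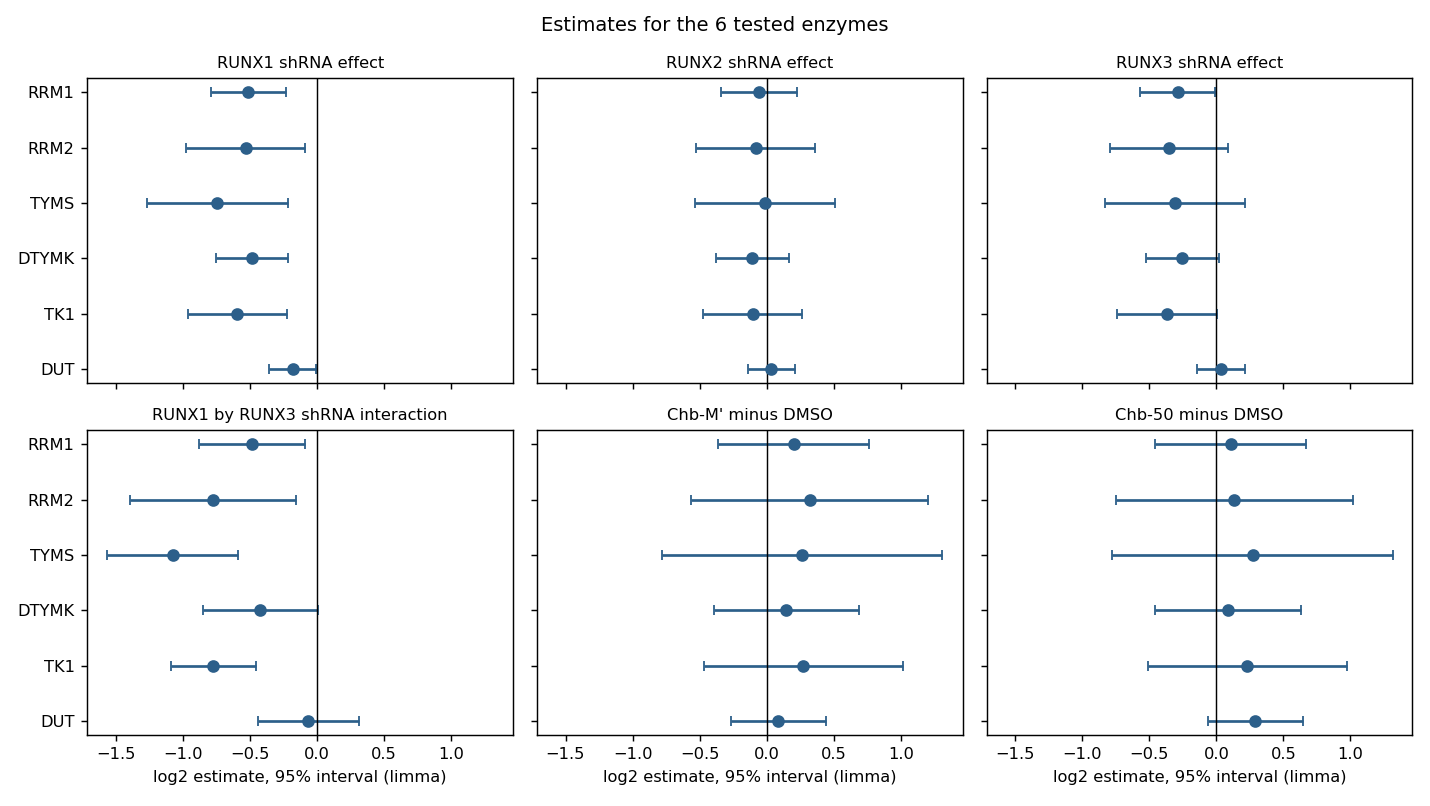
Limma estimates (points, log2, horizontal axis) with 95% intervals (bars) for the 6 tested enzymes (vertical axis) in 6 comparisons. For the RUNX1 shRNA all 6 unadjusted intervals lie below 0, led by TYMS at -0.74, while the intervals for both compounds and for the RUNX2 shRNA include 0 for every enzyme.

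Against shLuc, the enzymes had their most negative mean differences on the 2 arrays that combine the RUNX1 and RUNX3 shRNAs, and both comparisons share the shLuc array. On shRUNX1+shRUNX3, TYMS differed by -1.21, TK1 by -1.09 and RRM2 by -1.03, which are the 3 of 6 enzymes at least 2-fold lower, against 1.49% of all genes tested. DTYMK differed by -0.94, RRM1 by -0.90 and DUT by -0.11. On the triple knockdown TK1 (-1.04) was the 1 of 6 past 2-fold, against 0.873% of all genes, followed by TYMS (-0.89), DTYMK (-0.77), RRM1 (-0.75), RRM2 (-0.75) and DUT (-0.20). These counts rest on single arrays with no replicate check, and on both arrays 5 of 6 enzymes were at least 1.5-fold lower and 0 of 6 were 3-fold lower. Of all genes tested, 4.96% were at least 1.5-fold lower and 0.0988% at least 3-fold lower with shRUNX1+shRUNX3, and 4.27% and 0.0412% in the triple knockdown.

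With 1 array per condition, the order of neighbouring levels was read against the 95% half-width for a difference of a pair of single arrays, taken from the pooled limma spread. That spread is what the additive shRNA terms leave, so it includes any interaction and is no measure of repeat arrays. The half-width was 0.56 for RRM1, 0.88 for RRM2, 1.05 for TYMS, 0.54 for DTYMK, 0.74 for TK1 and 0.35 for DUT. Relative to shLuc, 5 of 6 enzymes on shRUNX1+shRUNX3 were lower by more than this, all but DUT, as were 8.29% of all genes against their own half-widths. RRM1, DTYMK and TK1 were so on the triple knockdown (7.29% of all genes), and DTYMK on the array labelled shRUNX1+shRUNX2 (3.05%). For all 6 enzymes the gaps between neighbours in the order of the 11 arrays were smaller than the half-width. By this measure that order does not separate adjacent conditions.

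Genes around deoxynucleotide supply had estimates on both sides of 0. Of 18 tested genes for other deoxynucleotide kinases, phosphatases and salvage, 14 had a negative estimate for the RUNX1 shRNA, with a median of -0.11, and 4 were lower and 2 higher at an unadjusted p under 0.05, beside 10.0% and 11.2% of all genes. The nucleoside transporter SLC29A1 (-0.59, SE 0.184) and the mitochondrial nucleotidase NT5M (-0.30, SE 0.154) lay lowest. Adenosine deaminase ADA (0.37, SE 0.127) and the dNTP hydrolase SAMHD1 (0.26, SE 0.0711) lay highest. RRM2B, the stress-induced alternative to RRM2, had -0.12 (SE 0.0589), and the mitochondrial kinases TK2 and DGUOK had 0.18 and 0.01, beside -0.59 for the cytosolic TK1. No gene of this list passed the limma test over all genes.

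In the folate cycle that supplies thymidylate synthase with its methyl donor, 6 of 7 tested genes were negative, with a median of -0.14. The folate hydrolase GGH (-0.65, SE 0.117, limma adjusted p = 0.089) and MTHFD1 (-0.39, SE 0.117) lay lowest and MTHFD2 (0.11, SE 0.0746) highest. Among the 4 genes that remove uracil from DNA, the S phase glycosylase UNG lay at -0.68 (SE 0.165), while TDG (0.46, SE 0.103) and SMUG1 (0.29, SE 0.0527) lay above 0, none past limma's adjusted threshold. In ribonucleotide synthesis 11 of 14 purine genes were negative with a median of -0.08, led by PPAT (-0.46), and 4 of 6 pyrimidine genes were negative with a median of -0.11, led by CTPS1 (-0.25).

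**Figure D4:**
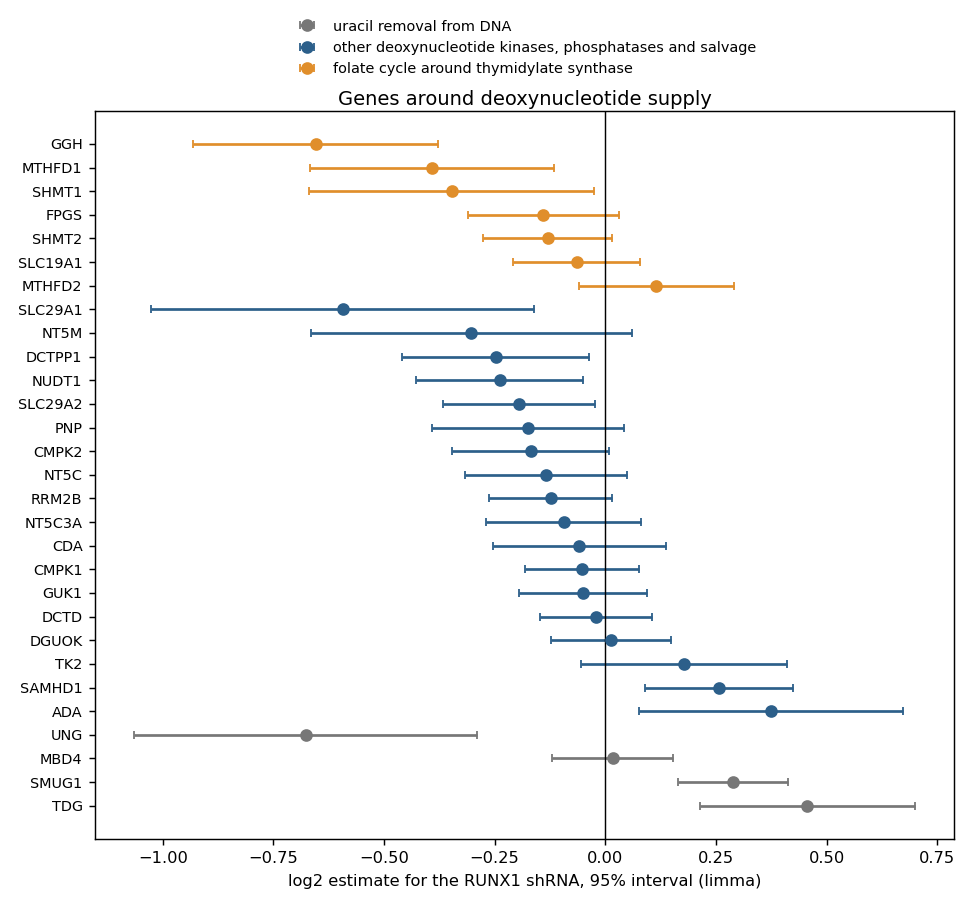
Limma estimate for the RUNX1 shRNA (log2, horizontal axis) with its 95% interval for each tested gene (vertical axis) of 3 lists around deoxynucleotide supply. SLC29A1 (-0.59), GGH (-0.65) and UNG (-0.68) lie lowest in their lists, and ADA (0.37) and TDG (0.46) lie on the other side of 0.

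Replication, cell cycle and mitosis genes were low on the same arrays. All 14 DNA polymerase and clamp genes had a negative estimate for the RUNX1 shRNA, with a median of -0.45, and POLE2 (-0.80) and POLA2 (-0.58) lay lowest. All 10 tested regulators of the enzymes were negative, with a median of -0.66. They included E2F8 (-0.86), an E2F repressor, the activator E2F1 (-0.83), and CCNF (-0.78), the F-box protein that targets RRM2 for degradation. All 12 mitosis markers were negative, with a median of -0.61. Limma called no gene of these 3 lists for the RUNX1 shRNA.

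Relative to shLuc, the mean difference of the 6 enzymes was -0.14 with shRUNX1 alone, -0.36 with shRUNX1+shRUNX2, -0.88 with shRUNX1+shRUNX3 and -0.73 in the triple knockdown. The 12 mitosis markers averaged -0.11, -0.55, -1.10 and -0.97 on the same arrays, and the part of the share of dividing cells in the enzymes' levels was not tested. Without the RUNX1 shRNA the enzymes averaged -0.08 on shRUNX2, 0.03 on shRUNX3 and -0.02 on shRUNX2+shRUNX3, and the mitosis markers -0.23, -0.09 and -0.11. The 6 myeloid markers, taken as a mean, differed from shLuc by -0.08 to 0.11 over the 7 other knockdown arrays. Single markers went both ways: relative to the shared shLuc array, MEIS1 was lower on all 7 (-0.36 to -0.26) and CSF1R higher on all 7 (0.0044 to 0.66, highest on the array labelled shRUNX1+shRUNX2), while MPO ran from -0.19 to 0.32.

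**Figure D5:**
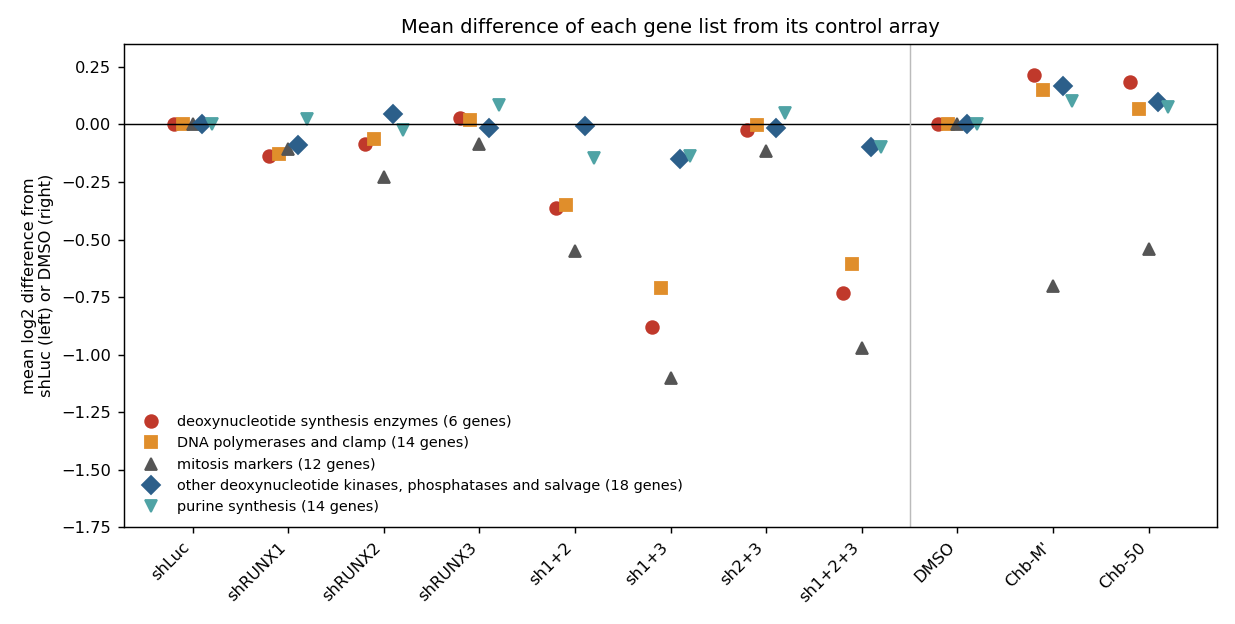
Mean log2 difference of 5 gene lists from their control array (vertical axis), which is shLuc for the knockdown arrays left of the line and DMSO for the compound arrays right of it (horizontal axis), 1 point per list and array with no error bar. On the arrays that combine the RUNX1 shRNA with another, the enzymes and the mitosis markers lie low together, at -0.88 and -1.10 on sh1+3. With shRUNX1 alone they lie at -0.14 and -0.11, and with Chb-M' they part, at 0.22 and -0.70.

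After 6 hours with either compound the enzymes lay slightly above DMSO. RRM2 read 8.48 with DMSO, 8.80 with Chb-M' and 8.62 with Chb-50. TYMS read 9.10, 9.37 and 9.38, TK1 read 8.65, 8.92 and 8.88, and RRM1 read 8.72, 8.92 and 8.82 in the same order. DTYMK read 7.26, 7.40 and 7.34, and DUT 4.004, 4.09 and 4.29. Of these 3 arrays DMSO was thus the lowest for all 6 enzymes. The cluster of DCK and MOB1B read 7.30 with DMSO, 7.36 with Chb-M' and 6.96 with Chb-50.

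Being higher than DMSO on both compound arrays held for 6 of 6 enzymes and for 38.8% of all genes tested, and both differences share the 1 DMSO array. In the limma fit that borrows its spread from the knockdown arrays, the differences for Chb-M' were 0.32 for RRM2 (95% interval -0.56 to 1.20), 0.27 for TK1 (-0.47 to 1.02), 0.26 for TYMS (-0.78 to 1.31), 0.20 for RRM1 (-0.36 to 0.76), 0.15 for DTYMK (-0.40 to 0.69) and 0.09 for DUT (-0.27 to 0.44). For Chb-50 they were 0.29 for DUT (-0.06 to 0.64), 0.27 for TYMS (-0.78 to 1.32), 0.23 for TK1 (-0.51 to 0.97), 0.13 for RRM2 (-0.75 to 1.02), 0.11 for RRM1 (-0.45 to 0.67) and 0.08 for DTYMK (-0.46 to 0.63). No enzyme was called with Chb-M', which called 74 genes (0.609%), or with Chb-50, which called 0% of genes by limma with 1114 at an unadjusted p under 0.05. No enzyme differed 2-fold on either array, against 0.873% of genes with Chb-M' and 0.296% with Chb-50.

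Chb-M' and Chb-50 were compared with each other at the same dose and time, 1 pair of compounds over the 6 enzymes. Chb-M' minus Chb-50 was 0.19 for RRM2 (95% interval -0.70 to 1.07), 0.09 for RRM1 (-0.47 to 0.66), 0.06 for DTYMK (-0.48 to 0.61), 0.04 for TK1 (-0.70 to 0.78), -0.01 for TYMS (-1.05 to 1.04) and -0.20 for DUT (-0.56 to 0.15). No enzyme passed (limma adjusted p from 0.893 to 1) and 0% of genes were called, with 869 at an unadjusted p under 0.05. The intervals reach about 1 log2 unit for TYMS, on a spread from the knockdown arrays that includes any interaction of the shRNAs. The arrays leave room for sizeable differences between the compounds and do not show that they act alike.

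The genes around the enzymes did not all take the enzymes' side with the compounds. All 12 mitosis markers lay lower than DMSO with each compound, with medians of -0.57 for Chb-M' and -0.56 for Chb-50. Of all 12147 genes tested, 5402 lay lower with Chb-M' and 5958 with Chb-50. Of the 14 DNA polymerase and clamp genes, 12 lay higher and 2 lower with Chb-M', and 11 and 3 with Chb-50. Of the 18 other kinase, phosphatase and salvage genes, 15 lay higher and 3 lower with Chb-M', and 13 and 5 with Chb-50. CDKN1A, the p53-responsive cyclin-dependent kinase inhibitor, rose by 1.44 with Chb-M' (SE 0.209, limma adjusted p = 0.047) and lay at 1.23 with Chb-50 (SE 0.209, limma adjusted p = 0.189). That call ended, with every other Chb-M' call, when shLuc, shRUNX2, shRUNX3, shRUNX1+shRUNX2, shRUNX2+shRUNX3 or the triple knockdown was left out (0 genes called each time). RRM2B, the p53-responsive small subunit, lay at 0.39 with Chb-M' (SE 0.118, limma adjusted p = 0.21) and 0.26 with Chb-50 (SE 0.118, limma adjusted p = 0.582). E2F2 was at 0.86 and 0.67, and CCNF at -0.66 and -0.47, for Chb-M' and Chb-50 in that order, without passing the test.

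Likeness of pattern was described by Pearson's r over arrays that share a cell line and a normalization. Over all 11 arrays the genes most like the mean of the 6 enzymes were WDR76 (r = 0.995), MCM3 (r = 0.992), SMC1A (r = 0.992), BTG3 (r = 0.989) and CDC6 (r = 0.985), out of 12141 compared. Over the 8 knockdown arrays they were EXO1, FANCC, MCM6, MCM2 and FANCG, with r from 0.996 to 0.998. MCM2, MCM3 and MCM6 are subunits of the replicative helicase and CDC6 loads it.

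Among the enzymes themselves, RRM1 and DTYMK were alike over the 11 arrays (r = 0.984), as were TYMS and TK1 (r = 0.970) and RRM2 and TYMS (r = 0.969). The subunits RRM1 and RRM2 had r = 0.879, which gave RRM2 rank 284 of 12146 genes by likeness to RRM1. DUT had lower likeness, with r from 0.331 to 0.527 to the others, and the genes most like it were GPBAR1 (r = 0.943) and FCAMR (r = 0.916). Its cluster lay near the level filter, at 3.80 to 4.29. That filter is a median of values and no floor, since deposited values go down to 0.48. Whether the low level of DUT limits a fall like the others was not tested. The most alike to each of the others were MCM6 and DTYMK for RRM1, PSMD11 and CDCA5 for RRM2, FIGNL1 and CDCA5 for TYMS, WDR76 and SLC1A5 for TK1, and BRCA1 and RRM1 for DTYMK.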

How the data were processed

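RNA of MV4-11 cells was hybridised to 11 Affymetrix arrays, with biotinylated cDNA made by the WT PLUS kit per the labels' protocols. The authors deposited log2 levels per transcript cluster; that they are log2 was inferred from their span, 0.48 to 12.74. The submitters' processing notes name RMA, Affymetrix Expression Console 1.3.1 and Transcriptome Analysis Console 1.0, without saying what each did. No probe intensities were used, so signal over background is unknown; precision is limited by the number of arrays.

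Of 53617 clusters, 23558 had 1 gene symbol in the platform annotation, 2155 had several and 27904 had none. Through Entrez identifiers 22271 of the 1-symbol clusters matched a RefSeq table for GRCh38.p14, which updated 3 symbols, and 618 genes had several clusters. Genes were tested when their highest level reached 3.80, the median of all 1-symbol values. This filter does not use the groups.

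Model fits used lmFit and eBayes of limma 3.58.1 (R 4.3.3), after the fits were tested on simulated data, and p-values were adjusted by Benjamini-Hochberg over all 12147 genes. The shRNA fit used the 8 knockdown arrays with 3 additive terms and 4 residual degrees of freedom (7.19 with the prior), and the compound fit used all 11 arrays and takes its spread from the knockdown arrays. Single arrays were compared at 2-fold without a test. Alternatives were other level filters, the mean of a gene's clusters, other scalings, an intensity trend, other folds, leaving out each array and, chosen after seeing the data, matched array pairs as a block. The naming rule took the 7 enzymes, the 2 largest rises and falls of each pathway list, RRM2B, SAMHD1, TK2 and DGUOK, and the 5 (for each enzyme, 2) most alike genes. CCNF with the RUNX1 shRNA was named after its values were seen. The enzymes and gene lists were chosen with earlier results of these data known.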

Additional observations from a re-analysis of the deposited data

Results flagged for a closer look

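TYMS differed with the RUNX3 shRNA in opposite directions without and with the RUNX1 shRNA. It lay higher by 0.26 and 0.20 on the arrays without the RUNX1 shRNA and lower by -1.15 and -0.54 on those with it, a difference of -1.08 between the mean effects (0.23 and -0.85). The limma interaction test gave an adjusted p of 0.249.

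The cluster shared by DCK and MOB1B differed with the RUNX2 shRNA by -0.03 and -0.09 without the RUNX3 shRNA and by 0.14 and 0.20 with it, a difference of 0.24 between the mean effects (-0.06 and 0.17). This difference was not tested.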

How the results depend on the processing

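For the RUNX1 shRNA, all 6 estimates stayed below 0 under every alternative in which the gene was tested, and leaving out 1 array at a time moved TYMS between -0.95 and -0.53 and RRM2 between -0.74 and -0.34. DUT was not tested under the stricter level filter of 6.08. The count of genes called for the RUNX1 shRNA was 0, became 110 with the stricter filter and 68 with an intensity trend, and ran from 0 to 817 when 1 array was left out, highest without the array labelled shRUNX1. The count of enzymes called ran from 0 to 5 in the same way, and 0 were called under the other alternatives. For the RUNX3 shRNA the genes called ran from 0 to 1 on leaving out 1 array. Small estimates changed sign when 1 array was left out: for the RUNX2 shRNA RRM1 ran from -0.169 to 0.0647, RRM2 from -0.27 to 0.13, TYMS from -0.23 to 0.20, TK1 from -0.241 to 0.0186 and DUT from -0.0356 to 0.0742, for the RUNX3 shRNA DUT ran from -0.0192 to 0.107, and for the interaction DUT ran from -0.23 to 0.10. Genes called with Chb-M' were 74, became 7 without a level filter, 128 with the stricter one and 49 with the mean of a gene's clusters, and ran from 0 to 77 on leaving out 1 knockdown array. With shRUNX1+shRUNX3 the enzymes past the fold threshold were 5 at 1.5-fold and 0 at 3-fold, and in the triple knockdown likewise 5 and 0, beside 4.96% and 0.0988% of all genes lower by those folds with shRUNX1+shRUNX3 and 4.27% and 0.0412% in the triple knockdown. The cause of these changes was not tested, beyond the array, genes or fold that each alternative removes. The labels give no shared replicate numbers, since each condition has 1 array, but the matched pairs of arrays that differ in 1 shRNA could be fitted as a block, an alternative chosen after seeing the data. It called 0 genes for each of the RUNX1, RUNX2 and RUNX3 shRNAs, with 2485, 759 and 932 at an unadjusted p under 0.05. Its estimates equal the additive ones by design, so that equality is no check.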
